A study of Mus musculus with 50 samples.

Results

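Splice region variants are DNA changes at or beside the edge of an exon, mostly in the intron bases next to a splice site. In 16 cases the deposited annotation used the term for deletions of a whole intron, essential bases included. They were taken as every variant that the deposited annotation calls a splice region variant and nothing else, whatever the number of tumours that carried it, in rows with a single alternate allele. The rule gave 480 of the 25624 distinct variants in the table (1.87%, exact 95% Clopper-Pearson interval 1.71 to 2.05%). Intervals of this kind cover counting error alone, and linked variants are not independent draws.

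The variants came from exome sequencing of mesenteric lymph node tumours, labelled as malignant plasma cells, from IL6Myc mice. This transgenic mouse develops a disease like multiple myeloma. The labels list 45 tumours from separate mice and, as controls, 5 kidneys of wild-type Balb/c mice. Columns of 44 tumours were analysed here, and tumour 4 and the kidneys were not, so inherited and acquired variants cannot be told apart.

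Introns are removed from a transcript by the spliceosome. The U1 small nuclear RNA pairs with the donor (5' splice site), where an intron begins with GT and often goes on with a purine, A, G and T. At the acceptor (3' splice site), U2AF binds a polypyrimidine tract, a run of C and T that ends shortly before the closing AG. Bases at the donor are numbered forwards into the intron (+1, +2 and so on), and bases at the acceptor are numbered back from the next exon (-1, -2 and so on). Positions +3 to +8 and -8 to -3 make up the intronic splice region, and the bases at 1 and 2 on each side are the essential sites.

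Whole introns and pyrimidine repeats are shown because the results below return to them. The 4 runs that follow are introns called as deleted precisely from exon to exon, read on the transcript strand of mm10, with the GT and AG at their ends in capitals.
Ttc14, chr3:33801081-33801190, plus strand: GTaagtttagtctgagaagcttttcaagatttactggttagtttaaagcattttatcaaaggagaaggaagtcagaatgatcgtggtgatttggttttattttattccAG
Ttc14, chr3:33804541-33804639, plus strand: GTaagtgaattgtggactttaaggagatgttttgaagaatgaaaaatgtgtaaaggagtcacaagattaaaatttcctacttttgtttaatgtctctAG
Calm3, chr7:16916977-16917074, minus strand: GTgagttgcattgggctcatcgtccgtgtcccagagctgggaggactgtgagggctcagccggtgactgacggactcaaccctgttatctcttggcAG
Hnrnpa2b1, chr6:51466405-51466494, minus strand: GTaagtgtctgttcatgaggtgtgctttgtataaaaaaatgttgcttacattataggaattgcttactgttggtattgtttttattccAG

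The next runs are bases inserted or deleted beside an exon, also on the transcript strand, with every inserted or deleted base in capitals. The first 6 lie at acceptors and hold pyrimidines alone, and the last 2 lie at donors.
Cntnap4 insertion at chr8:112785749, plus strand: TCTCTCTCTCTCTCTCTCTCTCTCTCTCTC
Cntnap4 longer insertion at the same base: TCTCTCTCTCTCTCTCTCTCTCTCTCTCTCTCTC
Fanca insertion at chr8:123300125, minus strand: CCTCTCTCTCTCTCTCTCTCTC
Traf3ip3 duplication at chr1:193195138, minus strand: TCTCTCTCTC
Ccdc163 duplication at chr4:116709203, plus strand: TTTTTTTTTTTTTTTT
Actr3 deletion at chr1:125394093, minus strand: TTCTTC
Eml5 deletion at chr12:98792011, minus strand: ACACGTAA
Lap3 insertion at chr5:45507208, plus strand: GGTGCCATGGATGTAGCCCTGG

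Of the 480 variants, 310 were single-base changes (SNVs) and 170 were insertions or deletions (indels), 69 and 101 of each. The acceptor side held 280 of them and the donor side 175. A further 16 were deletions called from the first to the last base of an intron. Exonic positions made up 4, all numbered in untranslated regions. They were Adig c.*17A>G in 20 tumours, Cd72 c.*7C>T in 6 tumours, and Rpl13 c.-6G>C and Psme2 c.-128G>T in 1 tumour each. No member lay in a coding exon, but the rule leaves out coding changes filed under another term, such as missense or synonymous. Their absence here is therefore no result. The last 5 were 2 larger deletions and 3 variants whose distance is written for another transcript. The larger deletion in Unc45a, a myosin chaperone gene, was called at 100% of reads in tumours 29, 31, 38 and 45. The members lay in 399 genes, of which 58 held more than 1.

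Each tumour carried 74.3 ± 30.3 splice region variants (mean ± SD, n = 44), with a median of 75.5 and a range of 37 in tumour 34 to 144 in tumour 2. They were 2.13% ± 0.195 of the calls in a tumour (SD, n = 44). Tumours titled 1600 and above carried 54.4 ± 16.1 and tumours titled below 1600 carried 94.2 ± 28.1 (SD, n = 22 each). Their ranges overlap, from 37 to 83 and from 39 to 144. As a share of calls, splice region variants were 2.11% ± 0.20 of calls in tumours titled 1600 and above and 2.16% ± 0.191 in those titled below 1600 (SD, n = 22 each).

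Carriers were spread widely. In 235 cases the variant was private, that is, called in 1 tumour (48.96%, exact 95% interval 44.4 to 53.5%), 103 were in 2 to 5 tumours, 109 in 6 to 22, and 33 in over 22. Private members were uneven: tumour 2 held 38 and tumour 5 held 28, against a median of 3 over all tumours. In tumour 2, 25 of its 38 lay on chromosome 2, and in tumour 5, 21 of its 28 lay on chromosome 1. Without these 2 tumours, an alternative chosen after the values were seen, 46.1% of 414 variants were private.

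Single-base changes were fewer per position in the splice region than in the next intron bases, and more so on the donor side. Over distinct variants, the donor side held 25.3 SNVs per position at +3 to +8 against 35.3 at +9 to +20, and the acceptor side held 25.5 at -8 to -3 against 29.8 at -20 to -9. By position the donor counts were 19 at +3, 24 at +4, 11 at +5, 27 at +6, 36 at +7 and 35 at +8. The base at +5, a G in the consensus, had the fewest. The acceptor counts were 25 at -3, 34 at -4, 19 at -5, 21 at -6, 33 at -7 and 21 at -8, a narrower spread than at donors. They did not fall steadily towards the exon, and those at -4 and -7 were above the 29.8 per position at -20 to -9. The essential sites held 7.5 SNVs per position at donors and 5.0 at acceptors.

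The same order was seen inside single tumours. On the donor side a tumour had 3.80 ± 1.95 SNV calls per position at +3 to +8, with a range of 1.17 to 9, and 7.09 ± 3.14 at +9 to +20, with a range of 3.50 to 13.5 (mean ± SD, n = 44). The splice region was the lower in 44 of 44 tumours (mean difference -3.29), and the adjusted p was 1.42e-05 in a two-sided paired permutation test over tumours. On the acceptor side the means were 5.04 ± 1.80 at -8 to -3 and 5.73 ± 2.07 at -20 to -9, and the splice region was lower in 41 tumours, higher in 2 and level in 1 (adjusted p = 1.42e-05, same test). In both cases the ranges over tumours overlap, and it is the paired difference that is uniform. The splice region in turn had 4.42 ± 1.84 SNV calls per position over both sides, against 0.256 ± 0.317 at the essential sites, which were lower in 44 of 44 tumours (adjusted p = 1.42e-05, same test).

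For the 12 comparisons with an adjusted p of 1.42e-05, the unadjusted p was 1e-05, the smallest that 100000 resamples can give. All p-values were adjusted over 17 tests. Tumours share many variants, so they are not independent draws of variants, and these p-values describe the evenness of a difference over the 44 tumours.

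**Figure D1:**
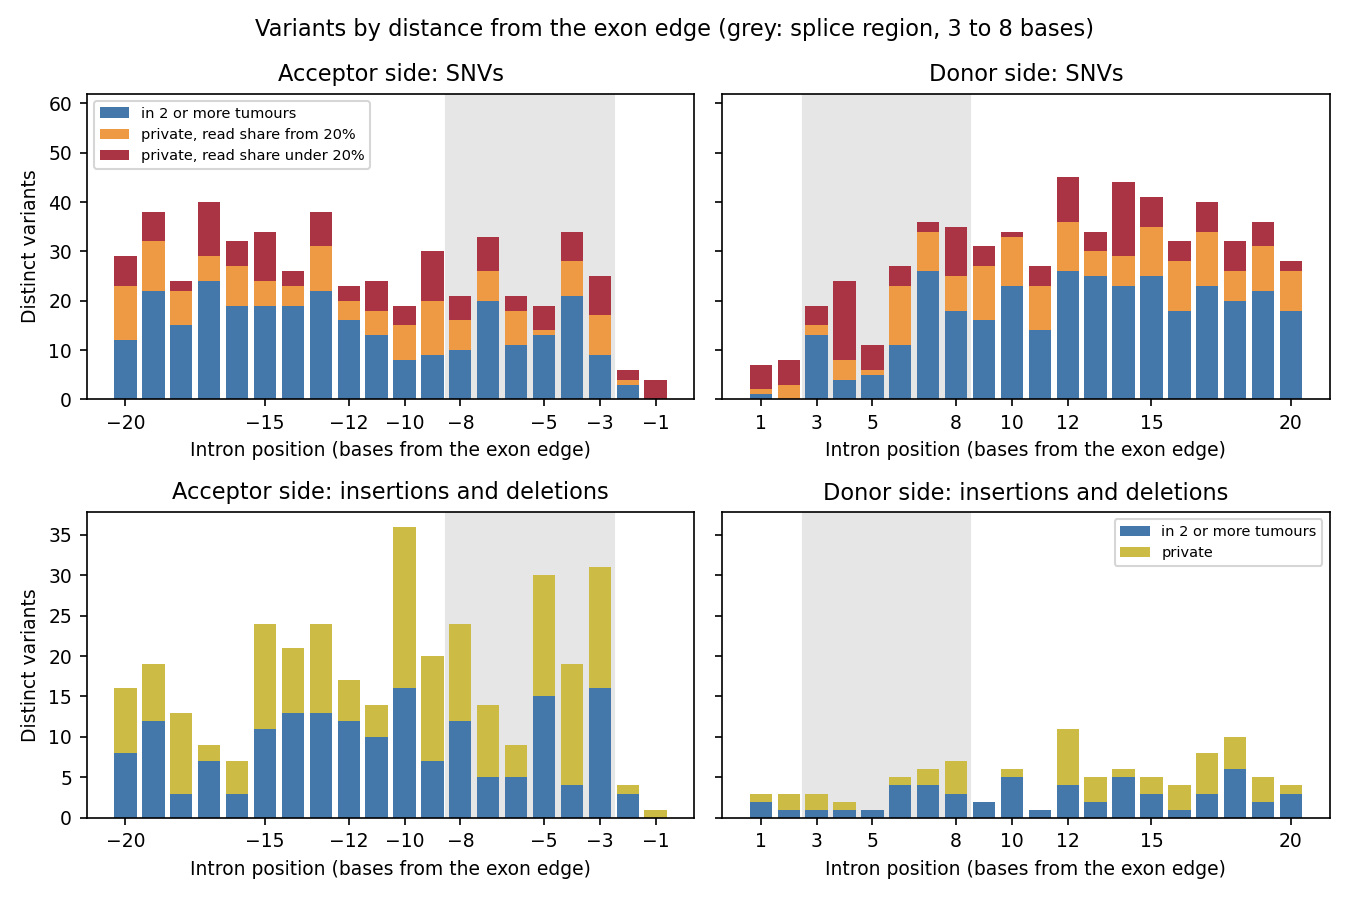
Distinct variants (vertical axis) at each intron position (horizontal axis, bases from the exon edge) on the acceptor side (left) and donor side (right). SNVs (top) and indels (bottom) annotated as splice region, intron, splice donor or splice acceptor variants are counted, and grey marks the splice region. Colours part variants in 2 or more tumours from private ones, with private SNVs split at a read share of 20%. SNV bars are lowest at 1 and 2 bases and at +5, and +4 is mostly red. Indels are many at -3 and -5, but their tallest bar is at -10, outside the splice region.

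Over distinct variants the 2 sides held nearly equal numbers of SNVs, 152 at donors and 153 at acceptors. Per tumour, donors had 22.8 ± 11.7 SNV calls, and acceptors 30.2 ± 10.8 (SD, n = 44), with the donor count lower in 41 of 44 tumours (difference -7.41, adjusted p = 1.42e-05, two-sided paired permutation test). Without variants in over 22 tumours it was -0.73 over the 30 tumours with enough calls, with an adjusted p of 0.303. Without chromosome 1 it was -1.17 over 41 tumours (adjusted p = 0.0437, same test).

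The letters that changed differed between the sides. Of 25 SNVs at -3, 23 replaced a pyrimidine and 18 put the other pyrimidine in its place, as in Ttc8 c.330-3C>T. Of 19 SNVs at +3, 18 replaced a purine and 15 kept a purine. Per tumour, C-to-T or T-to-C changes made up 61.4% ± 7.61 of acceptor SNV calls, from 48.3 to 76.2%, and 26.8% ± 6.66 of donor SNV calls, from 14.3 to 36.8% (SD, n = 44). The groups did not overlap, and the acceptor share was higher in 44 of 44 tumours (difference 34.6 percentage points, adjusted p = 1.42e-05, two-sided paired permutation test). This share counts only changes that begin from a pyrimidine, and the consensus holds more pyrimidines at acceptors than at donors. The test therefore cannot tell the letters present on each side from the way they change. Without variants in over 22 tumours the difference was 19.6 percentage points, and the acceptor share was higher in 27 of the 30 tumours with enough calls (adjusted p = 1.7e-05, same test). Transitions, changes within the purines or within the pyrimidines, were 74.7% ± 3.55 of splice region SNV calls, against 81.0% ± 1.41 of synonymous ones (lower in 43 of 44 tumours, adjusted p = 1.42e-05, same test). Against the 70.7% ± 1.48 of intron variants the splice region was higher in 39 of 44 tumours (adjusted p = 1.42e-05), but this turned to -0.81 percentage points without variants in over 22 tumours (adjusted p = 0.593).

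Changes away from the consensus were mostly private, while 147 of all 310 splice region SNVs were (47.4%). At +3 to +6 and -3, 36 SNVs lost the consensus letter and 30 of those were private, 33 kept it and 14 were private, and 11 gained it and 5 were private. A further 26 had it neither before nor after the change, and 15 of those were private. Read shares were under 20% in 20 of the 30 private losses and 8 of the 14 private SNVs that kept it. The same held for 2 of the 5 private gains and 7 of the other 15. The most shared loss was Kif15 c.849+6T>A, in a mitotic kinesin gene, in 22 tumours at 39.2 to 65.5% of reads. Osbpl10 c.1394+5G>T, in an oxysterol-binding protein gene, replaced the G at +5 in 19 tumours at 25.9 to 65.5%. Kept letters included Dhx35 c.1222+3A>G, in an RNA helicase gene, in 20 tumours at 32.4 to 62.9%. No test was made of these counts, and the losses at +4 described next make up 17 of the 36 and 17 of the 30 private ones.

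Position +4 stood out by its private changes, a pattern chosen after the values were seen. Of 24 SNVs there, 20 were private, and the 17 that replaced the consensus A were private without exception. An A-to-C change made up 13 of the 24 (54.2%), while it made up 16 of 424 SNVs at +9 to +20 (3.77%) and 4 of 153 in the acceptor splice region (2.61%). These shares also carry how often the changed letter was an A. Among SNVs that replaced an A, it was 13 of 17 at +4, 16 of 87 at +9 to +20 and 4 of 21 in the acceptor splice region. The 13 lay in 12 tumours at read shares with a median of 9.33%, and 10 were under 20%. They included Hmcn1 c.4345+4A>C at 6.98% in tumour 11, Ocln c.1034+4A>C at 9.33% in tumour 3 and Ltf c.1348+4A>C at 21.9% in tumour 19. Their genes run on the minus strand in 9 cases and on the plus strand in 4. The read depth behind these calls is unknown. The 4 shared variants at +4 began from another letter, among them Kcnk10 c.496+4C>T, in a potassium channel gene, in 43 tumours, and Dennd1b c.82+4T>C in 41.

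Of the private SNVs at +3, +4, +5 or -3 with a read share of at least 20%, the highest was at 62.5%. Rabl6 c.313+4A>T, in a small GTPase gene, was at 45.7% in tumour 2, and Plcb2 c.452+3A>G, in a phospholipase C gene, was at 48.3% in the same tumour. Cd72 c.838-3C>T, in a gene for an inhibitory co-receptor of B cells, was at 47.2% in tumour 11. Tmem198 c.743-3C>A, which replaced the pyrimidine at -3 with a purine, was at 50.0% in tumour 5.

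Indels gathered on the acceptor side. They made up 127 of 280 acceptor variants (45.4%, exact 95% interval 39.4 to 51.4%) and 23 of 175 donor variants (13.1%, 8.52 to 19.1%). Per tumour, 32.2% ± 3.91 of acceptor calls were indels, from 23.1 to 41.03%, against 19.1% ± 5.49 of donor calls, from 8.57 to 33.3% (SD, n = 44). The ranges overlap, and within a tumour the acceptor share was higher in 41, lower in 2 and level in 1 (difference 13.1 percentage points, adjusted p = 1.42e-05, two-sided paired permutation test). Over all splice region calls the indel share was 28.2% ± 3.20, against 21.7% ± 2.47 of intron variants, higher in 43 of 44 tumours (adjusted p = 1.42e-05, same test). This splice region share counts the 46 calls of whole-intron deletions, described below, and was not tested without them. The acceptor excess went on past the splice region: indels were 38.1% of the variants at -20 to -9, against 13.7% at +9 to +20.

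**Figure D2:**
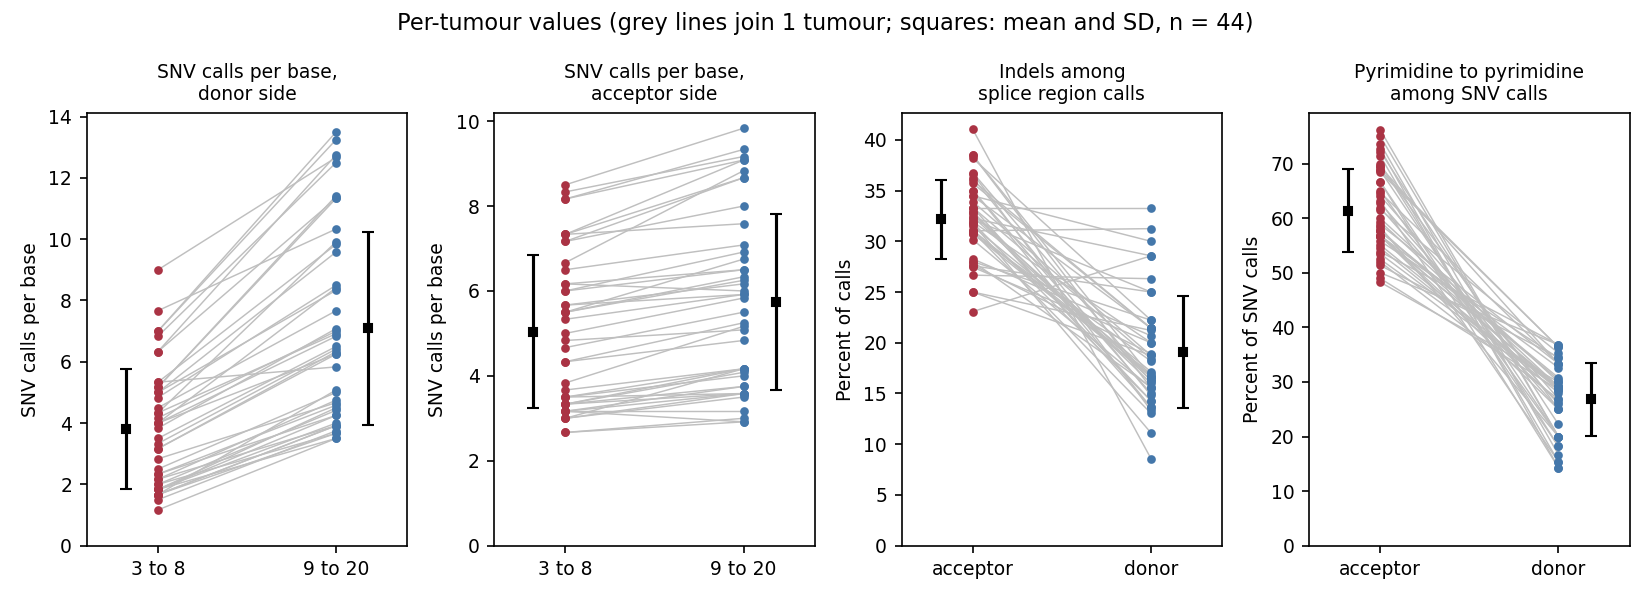
Each pair of joined points is 1 tumour (n = 44), and the squares with bars are means and SDs. From left to right the vertical axes give SNV calls per position on the donor side and on the acceptor side, each for 3 to 8 against 9 to 20 bases from the exon, then the percent of splice region calls that are indels and the percent of SNV calls that turn a pyrimidine into the other pyrimidine, each for acceptor against donor; the last panel has no overlap between its sides.

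Most acceptor indels gained or lost pyrimidines alone. The intron around them was not read, as no genome was used here, so the tract they lie in is not described. In 106 of 127 (83.5%, exact 95% interval 75.8 to 89.5%) the inserted or deleted bases were pyrimidines alone, against 3 of 23 at donors (13.04%, 2.78 to 33.6%). The 106 comprised 68 runs of T, 25 of C and T together and 13 of C, and 48 were insertions and 58 deletions. A single base was gained or lost in 59 and 2 bases in 13, and 34 were longer. Donor indels held purines alone in 10 cases and both kinds in 10. By convention an indel in a repeat is written at its 3'-most place, nearest the exon on the acceptor side, so the distances of indels carry this choice, and its part in the counts by position was not tested.

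Of the 127 acceptor indels 70 were private (55.1%), as were 8 of the 23 at donors (34.8%). Only 8 of all 170 indels were in over 22 tumours (4.71%), beside 25 of 310 SNVs (8.06%). Cntn2 c.704-3dupC, in a neuronal adhesion gene, and Syt2 c.929-6_929-5dupCT, in a synaptotagmin gene, were each in 41 tumours, at 21.4 to 69.4% and 31.6 to 69.1% of reads. Actr3 c.1162-9_1162-4del, in the gene of the Arp3 actin nucleator, was in 38 tumours at 36.4 to 58.8%, and its 6 bases are shown above. On the donor side, Tnnt2 c.305+7dupG, in the cardiac troponin T gene, and Eml5 c.5642+5_5642+12del, in a microtubule-associated protein gene, were in 43 tumours each. Lap3, a leucine aminopeptidase gene, had a 22-base insertion between +2 and +3 in 13 tumours at 20.5 to 41.03%, with a median of 38.8%.

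Repeats also showed several lengths at a single place. At 12 positions more than 1 allele was listed, 31 variants in all, and all of them were indels. Cntnap4, a neurexin family gene, had insertions of 30, 34 and 32 bases of alternating T and C in 7, 5 and 1 tumours, 13 in all. Ccdc163 had 4 alleles in 4 tumours, which gained 16, 37 or 45 T or lost 8. Unc13d, whose product Munc13-4 primes secretory granules, gained 10, 8 or 4 bases of TC in 4, 2 and 1 tumours, and Setd3, an actin histidine methyltransferase gene, lost 1, 2 or 3 C in 2, 1 and 1. Strn, the striatin gene, showed this at a donor, with insertions of 10, 14 or 12 bases in 6, 4 and 1 tumours. Of 88 private indels, 20 shared their position with another allele (22.7%, exact 95% interval 14.5 to 32.9%), against 1 of 147 private SNVs (0.680%, 0.0172 to 3.73%). That SNV, Trpc2 c.1857+8A>C, shared its position with a variant annotated as intronic, which is no splice region variant and is not among the 31.

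Private SNVs lay at lower read shares than shared SNVs, given here as a description with no test. The read share is the percent of reads at a site with the alternate allele, as read from the values, and no depth is given. Private SNVs had a median of 15.4% (quartiles 7.90 and 43.5%, n = 147), with 77 under 20% and 43 from 40 to 60%. Shared SNVs had a median of 47.3% (quartiles 45.1 and 50.0%, n = 163), with 8 under 20%. Without tumours 2 and 5, private SNVs had a median of 11.8% (n = 113), and 69 were under 20%. Private indels had a median of 47.1% (n = 88) and shared indels 48.3% (n = 82). Both include whole-intron deletions, which had medians of 14.3% when private (n = 7) and 15.1% when shared (n = 9).

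A share of 100% was seen in 14 of 88 private indels (15.9%) and in 1 of 147 private SNVs, Arntl2 c.150-5C>T in tumour 36, in a circadian clock gene. Itga3 c.3051+6A>G, in an integrin gene, followed at 69.2% in tumour 2 and Slc4a3 c.1970-6C>T, in an anion exchanger gene, at 62.5% in tumour 5. Shared indels at 100% included Traf3ip3 c.491-12_491-3dup in all 9 of its tumours. The Cntnap4 insertion of 30 bases lay between 33.3 and 100% in its 7 tumours, with a median of 100%.

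**Figure D3:**
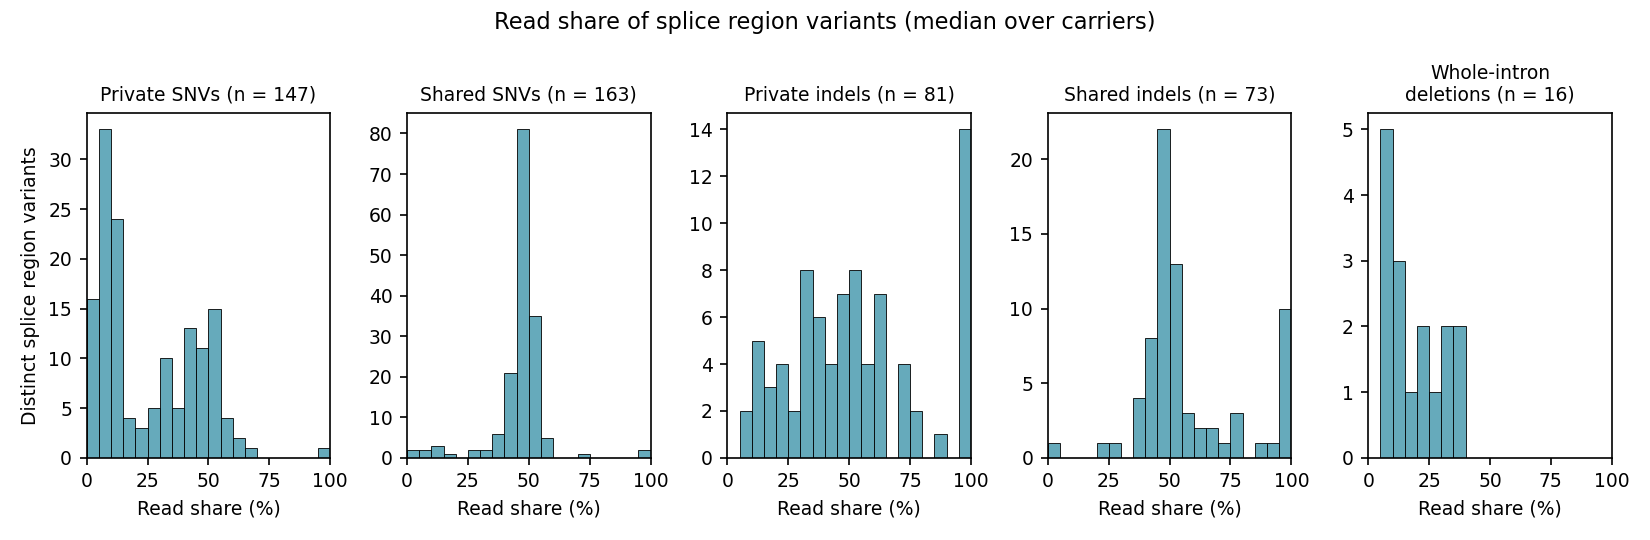
Histograms of read share (horizontal axis, percent, the median over the tumours that carry the variant) against the number of distinct splice region variants (vertical axis, its own scale in each panel); the indel panels leave out the whole-intron deletions, which have a panel of their own. Private SNVs have a low peak and a peak near 50%, shared SNVs lie near 47.3%, indels reach 100%, and whole-intron deletions stay under 40%.

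Within tumours the typical splice region SNV was close to other variants. Its median read share was 47.2% ± 2.31, against 48.1% ± 1.63 for intron SNVs, lower in 34 of 44 tumours (difference -0.87 percentage points, adjusted p = 0.000196, two-sided paired permutation test). Against synonymous SNVs, at 47.7% ± 1.52, it was lower in 26 of 44 tumours (difference -0.51 percentage points, adjusted p = 0.0487, same test), and this call was lost under 6 of the 8 alternatives that gave a value. Splice region indels, with whole-intron deletions included, had a median of 48.2% ± 3.37, against 47.2% ± 2.31 for splice region SNVs. They were higher in 29 of 44 tumours (adjusted p = 0.0331, same test), a call lost under 4 of the 8 alternatives. Without variants in over 22 tumours this difference was 4.56 percentage points (adjusted p = 0.0132, n = 38), and without chromosome 1 it was 2.81 (adjusted p = 0.0433, n = 42). Over all 44 tumours the 3 differences are smaller than the SD over tumours.

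With indels included, the private share of splice region calls lay between those of synonymous and missense variants. It was 7.25% ± 7.52 per tumour (SD, n = 44), from 0 to 43.1%. Synonymous calls were private in 3.58% ± 5.31, and the splice region was higher in 39 of 44 tumours (adjusted p = 1.42e-05, two-sided paired permutation test). Missense calls were private in 11.4% ± 7.24, and the splice region was lower in 40 of 44 (adjusted p = 1.42e-05, same test). With calls under 20% of reads left out this last difference turned to 0.48 percentage points above missense, with an adjusted p of 0.216. The synonymous and missense classes hold no indels, so unlike sets are compared, and splice region SNVs alone were not tested. A tumour had on average 3.34 private among 53.7 splice region SNV calls, and 2.0 private among 20.6 indel calls. Against intron variants, at 7.65% ± 6.18, the splice region was lower in 26 and higher in 18 tumours (difference -0.40 ± 3.20 percentage points, SD; adjusted p = 0.444, same test). Acceptor calls were private in 7.13% ± 7.23 and donor calls in 6.91% ± 9.78 (higher in 23, lower in 19; adjusted p = 0.839, same test). With calls under 20% left out, the shares were 5.11% at acceptors and 3.14% at donors (difference 1.98 percentage points, adjusted p = 0.00337, same test). In tumours titled below 1600 the difference was -0.57.

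Deletion calls that span whole introns are given apart. The 16 deletions lay in 14 genes and gave 46 calls in 27 tumours. Each ran from the first to the last intron base, 84 to 194 bases in length with a median of 104.5. The strand was taken from SNVs of the same transcript or from the RefSeq promoter table, not from the deleted letters, and for Rpl8 neither gave it. Of the other 15, 13 began with GT and ended with AG as called. Ran and Sptan1 did so after a shift of 2 and 4 bases, chosen to give these ends. Removing an intron so that its exons join leaves the letters a spliced transcript has. The 46 read shares lay between 5.98 and 39.7%, with a median of 21.9%, so all were under 40%.

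In Ttc14, a tetratricopeptide repeat gene, deletions were called at 2 introns. The first, of 110 bases, was called in tumours 3, 7, 8, 11, 39, 41 and 42 at 28.4 to 36.6%, with a median of 35.4%. The second, of 99 bases, was called in tumours 1, 5, 8, 11, 23 and 25 at 29.95 to 38.5%, with a median of 34.1%. Tumours 8 and 11 had both, so 2 of the 11 tumours with either call had the pair. Tpi1, which encodes the glycolytic enzyme triosephosphate isomerase, also had deletion calls at 2 introns, each of 84 bases. Tumours 3, 5, 11 and 43 had 9.09, 7.11, 7.45 and 5.98% for the one and tumours 1, 7 and 10 had 6.11, 11.1 and 12.5% for the other, with no tumour in common.

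Read shares lay at separate levels in Usp21 and Calm3. Usp21, a deubiquitinase gene, had 38.7, 37.9, 37.2, 39.7 and 33.2% in tumours 2, 7, 14, 21 and 30. Calm3, a calmodulin gene, had 8.33, 9.26, 8.59, 10.1 and 12.5% in tumours 18, 19, 33, 40 and 44. The highest Calm3 value is below the lowest of Usp21. Rfc1, the large subunit of the replication clamp loader, lay between, at 22.5, 19.9, 21.2 and 14.1% in tumours 10, 16, 24 and 26. Hnrnpa2b1, which encodes an RNA-binding protein of nascent transcripts, had 15.1, 11.1 and 24.1% in tumours 1, 6 and 7.

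**Figure D4:**
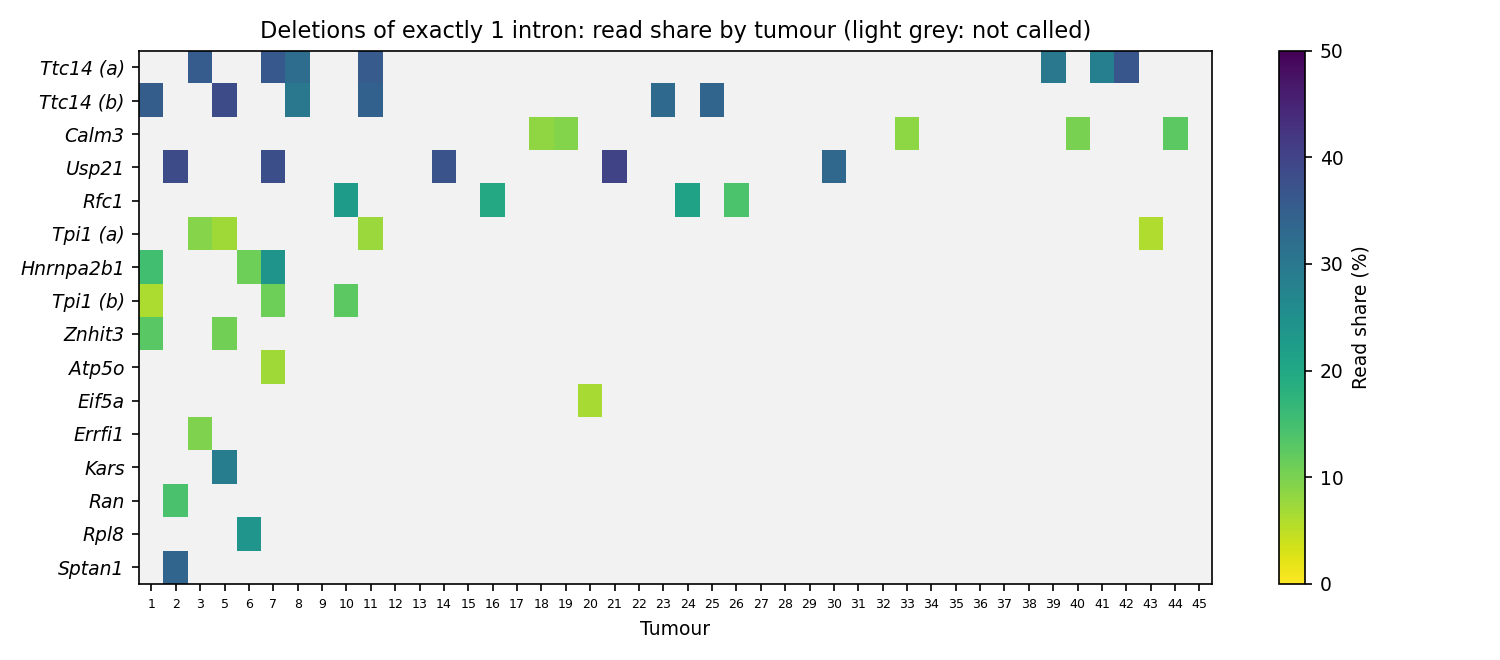
Read share (colour, percent) of each of the 16 whole-intron deletions (rows, by gene; a and b are separate introns of a gene) in each of the 44 tumours (columns); light grey marks no call. Calls are dark for both Ttc14 introns and Usp21 and light for Calm3 and Tpi1, Hnrnpa2b1 runs from 11.1 to 24.1%, and 7 rows have a call in 1 tumour.

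The other 7 were called in 1 tumour each. They lay in Rpl8 of the large ribosomal subunit at 23.9%, Kars, the lysyl-tRNA synthetase, at 28.7%, Eif5a, a translation factor, at 6.51%, and Sptan1, an alpha spectrin, at 33.8%. The others were Errfi1, a feedback inhibitor of ERBB receptors, at 9.64%, Ran, the nuclear transport GTPase, at 14.3%, and Atp5o, an ATP synthase subunit, at 7.17%. The length of 4 of the 16 was a multiple of 3. The source of these reads was not tested, as the table holds neither reads nor depth.

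The most shared splice region variants lay on few chromosomes. All members were spread much as the table is, with chromosome 11 somewhat higher: it held 76 of them, 15.8%, against 11.3% of all variants. Chromosome 2 held 14.4% against 14.8%, chromosome 1 held 13.1% against 11.95% and chromosome 3 held 9.79% against 11.2%. Of the 33 in over 22 tumours, 23 lay on chromosome 1 and 8 on chromosome 12. The 6 in 43 tumours were Tnnt2 c.305+7dupG on chromosome 1 and, on chromosome 12, Galc c.1034-7T>C, Kcnk10 c.496+4C>T, the Eml5 deletion, Ttc8 c.330-3C>T and Rps6ka5 c.1377-7T>C. Galc encodes galactosylceramidase, Ttc8 a subunit of the ciliary BBSome and Rps6ka5 a kinase of chromatin proteins. Their medians lay between 46.2 and 51.1% of reads. Next came 9030617O03Rik c.98-7A>G in 42 tumours, and Phlpp1 c.3853-4C>G, in an Akt phosphatase gene, and Ddx18 c.1177-7A>G, in an RNA helicase gene, in 41.

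Some genes carried several members together. Myo19, a mitochondrial myosin gene, held 7, and 6 of these were called in tumours 1, 2 and 3 and in no other, at 25 to 70.6%. Its SNVs c.1353+7G>T and c.1353+8A>T lay side by side with equal shares in each of the 3 tumours, from 28.3 to 50.0%. Acss2, an acetyl-CoA synthetase gene, held 4 in 17 to 20 tumours, of which c.1658-6_1658-5delTC and c.1658-4_1658-3insTT had the same 20 carriers and the same range of shares, 32.6 to 58.8%. Gene 4932438A13Rik held 3 variants in 11 tumours each and a private insertion at 13.3%.

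Splice region variants lay in 12 of the 129 genes of 4 lists on splicing, tumour suppression, chromatin and plasma cell biology that had any variant in the table (9.30%). Of all genes in the table, 399 of 6860 had a member (5.82%). Among spliceosome and splicing factor genes it was 5 of 44 (11.4%), among tumour suppressor and DNA repair genes 5 of 24 (20.8%), among chromatin regulators 1 of 26 (3.85%) and among myeloma and B cell genes 1 of 35 (2.86%). The lists are short and were chosen with earlier results of these data known. Gene length was not taken into account, and no test was made of these shares.

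In the genes of the splicing list no member was private. Outside it, and named after their values were seen, Sfswap and U2surp, which also encode splicing proteins, had private members. Crnkl1, a spliceosome component, had c.1546-5C>A and c.623-5C>T, each in 18 tumours at medians of 48.1 and 48.5%. Snrnp200, the helicase that unwinds the U4/U6 pair, had c.5133+3C>G in 10 tumours at 26.7 to 65.0%. Prpf31, a factor of the same particle, had c.946-3delT in 11 tumours at 41.2 to 55.0%. Luc7l3, a U1-associated factor, had c.426+4_426+5dupAG at 52.6 and 52.8% in tumours 1 and 2.

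Among repair and suppressor genes, Samhd1, which breaks down deoxynucleotides, had c.372-4T>G and c.305-3_305-2insT, each in 20 tumours at medians of 46.5 and 50.4%. Like Crnkl1, Samhd1 lies on chromosome 2, where members in Napb, Bpifb3, Adig and Dhx35 were also each in 20 tumours. Whether such members were inherited together was not tested. Nf1, which switches RAS off, had c.6433+7C>T in tumours 1, 2, 3, 8 and 11 at 30.8 to 56.1%. Fat4, a cadherin gene, had c.5569+8A>T at 54.2% in tumour 12. Fanca and Fancm, of the Fanconi repair pathway, had 1 private member each, the insertion of 22 bases shown above at 42.9% in tumour 1 and c.4666-5T>C at 6.56% in tumour 21. From the list of myeloma and B cell genes, Stat3, the transcription factor that interleukin 6 acts through, had c.372+6_372+7dupAG in tumours 1, 2, 7 and 8 at 39.2 to 56.5%. Nf1, Stat3 and Luc7l3 lie on chromosome 11, as Myo19 does, and tumours 1 and 2 carried members of each. From the list of chromatin regulators, Idh1, which encodes isocitrate dehydrogenase, had c.-16-9_-16-8delTT at 62.1% in tumour 5.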

How the data were processed

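Exome variant calls of IL6Myc tumours were read from 1 annotated table. Per the labels' protocols, a Qiagen DNA kit and an Agilent capture of mouse exons (50 Mb) were used. Per the submitters' processing notes, calling used GATK and the mm10 build, and neither filters nor the annotation tool are named in these sources. Each deposited tumour cell holds a percent value or a dot for no call, and a deposited count column gives the number of carriers. No header defines this percent, and its values led to its being treated as the alternate read share. Depth per sample is unknown, so a dot may be an uncovered site, and no percent has an interval.

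The table held 25823 rows, of which 199 with several alternate alleles were left out, 1 of them a splice region row. Side and distance came from the deposited HGVS names, and letters were turned to the transcript strand by SNVs of the same transcript, the RefSeq promoter table of GRCm38.p6 or the name's own letters. RefSeq held 375 of 399 gene symbols and 24 as synonyms. Per-tumour values were compared by two-sided paired permutation tests (sign flips, 100000 resamples, at least 5 calls per class, Benjamini-Hochberg adjustment over 17 tests, threshold 0.05), with code tested on simulated data. In the comparison with the essential sites, the minimum of 5 calls held for the splice region class alone. Python 3.11.15, numpy 2.4.6, pandas 2.3.3, scipy 1.17.1 and matplotlib 3.10.9 were used.

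Named variants were the 10 with the most carriers, the 5 genes with the most members, up to 10 private SNVs of at least 20% at +3, +4, +5 or -3, members in 4 gene lists, the 10 indels with the most carriers, the 5 private indels and the 3 private SNVs of the highest read share. Results for 1 gene that these rules name were left out. Whole introns, sites with several alleles, changes of consensus letters, and +4 were described after their values were seen. The members, lists and tests were chosen with earlier results of these data known. Alternatives were a minimum read share of 10 or 20%, private variants alone, leaving out variants in over 22 tumours, keeping the row with several alleles, tumours titled below or from 1600 alone, and leaving out chromosome 1 or, added after the values were seen, tumours 2 and 5.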

Additional observations from a re-analysis of the deposited data

How the results depend on the processing

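Of 137 values of the 17 tests under the alternatives, 118 kept their direction and their side of the threshold, 12 lost the call, 2 gained it and 5 turned. The cause was not tested in any case. Read share of splice region SNVs minus synonymous SNVs lost its call with calls under 10% or 20% left out (-0.27 and -0.30 percentage points), without variants in over 22 tumours (-0.74), in tumours titled below 1600 and from 1600 alone (-0.26 and -0.76), and without tumours 2 and 5 (-0.53). Read share of indels minus SNVs lost its call with calls under 10% or 20% left out (0.85 and 0.89), in tumours titled below 1600 (0.27) and without tumours 2 and 5 (0.92). With calls under 10% left out, the private share minus that of intron variants became a call (-1.31, adjusted p = 0.00837 in the permutation test) and that minus missense lost its call (-0.79). With calls under 20% left out, the private share minus missense turned (0.48), and the private share of acceptor minus donor calls became a call (1.98, adjusted p = 0.00337). Without variants in over 22 tumours, donor minus acceptor SNV calls lost its call (-0.73), and the private share minus intron variants (1.72) and the transition share minus intron variants (-0.81) turned. The private share of acceptor minus donor calls turned in tumours titled below 1600 (-0.57), and that of splice region minus intron variants turned without chromosome 1 (0.80). Of 30 alternative counts and shares, 26 stayed within 1.5 times the count or within the exact interval of the share. The percent private moved to 43.5 and 38.9 with calls under 10% and 20% left out, and at 20% the percent of indels moved to 39.9 and the whole-intron deletions to 8. Of 69 named variants, 1 was lost at 10% and 3 at 20%. With private variants alone, 12 results had too few tumours with enough calls to give a value. No paired analysis was possible because the tumours are the only sample group analysed, so no samples could be paired across groups (the tests pair values within a tumour). Unknown depth limits what a low read share or a missing call shows.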
